A study of Mus musculus with 61 samples.

Results

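The proteasome subunit genes were taken as every row of the count table whose mouse symbol begins with Psma to Psmg followed by a digit, with 3 pseudogene rows left out. The rule gave 50 of the 23927 gene rows. Of these, 49 name a subunit, activator, inhibitor or assembly chaperone, and the remaining gene, Psmc3ip, encodes a meiotic recombination factor and was kept out of every class. The libraries were 61 single-cell SMART-seq libraries from ovaries of wild-type CD-1 mice at postnatal day 5, taken 6 h after an intraperitoneal injection. The control animals received solvent and the treated animals doxorubicin, an anthracycline that damages DNA, at a dose written as 10 mg/kb, which is not a unit of dose. The 4 groups were 16 control oocytes, 16 doxorubicin oocytes, 16 control granulosa cells and 13 doxorubicin granulosa cells.

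The proteasome degrades proteins that carry ubiquitin chains. Its 20S core is a barrel of alpha and beta rings, with proteolytic sites on some of its beta subunits, and its 19S regulatory particle binds the ubiquitin chain, unfolds the substrate with a ring of ATPases and feeds it into the core. Interferon signals replace the catalytic subunits by immune subunits and raise the PA28 activator, which favours peptides suited to antigen presentation. Oocytes hold a large store of RNA that is made during growth, and germ cells have an alpha subunit of their own, the product of Psma8.

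No animal, litter or culture was named for the cells, so each group counted as 1 sample and no test was made between groups. Values are gene counts scaled to a common library total (CPM). A group value is the summed count of its cells over their summed total, a log2 ratio is the log2 of 1 group value over another, and each 95% interval is an exact interval that covers counting error only. Amplified reads without molecular identifiers are not independent molecules. The spread between cells was far wider than these intervals, and its sources were not tested. Library totals ran from 6834594 to 31262609 counts, the highest being control oocyte replicate 16. The raw reads of doxorubicin oocyte replicate 4 were stated to be lost, and its column was used as deposited.

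The labelled cell types were checked against 19 oocyte and 19 granulosa marker genes. The summed oocyte markers stood at 24171 to 55378 CPM in control oocytes, and the summed granulosa markers at 3.61 to 792 CPM. Doxorubicin oocytes held 17.8 to 3190 CPM of granulosa markers, with replicates 9, 11 and 12 at 2056 CPM or more. The granulosa libraries were less clean. Oocyte markers exceeded granulosa markers in 5 of 16 control and 8 of 13 doxorubicin granulosa libraries, with oocyte marker sums of up to 16170 and 42459 CPM. Stroma markers, 8 genes, reached 16597 CPM in control and 9755 CPM in doxorubicin granulosa libraries, with medians of 806 and 813 CPM. Of 10 white blood cell markers, 9 were in the table, their sum was 0 in the median cell of every group with maxima of 58.9 and 257 CPM in control and doxorubicin granulosa cells, and Ptprc, Lyz2, C1qb, Cd52 and Laptm5 were at 0 in both. The red blood cell genes summed to 34796 CPM in doxorubicin granulosa replicate 15, against 464.7 CPM at most in the control granulosa libraries.

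Promoter sequences of 42 members were found in RefSeq for the mouse build GRCm38.p6, each covering 250 bases before and 50 after a transcription start. No entry was found for Psma8, Psmb1, Psmb2, Psmb7, Psmc3, Psmd3, Psmd7 and Psmg2. The search covered both strands for CCGGAAG, a binding sequence of ETS factors, for CCAAT, the box bound by NF-Y, for TGACNNNGC, the core of the antioxidant response element, and for the interferon-stimulated response element, read as GAAA, any 2 bases, GAAA. These motifs can overlap in a promoter and were counted separately. CCGGAAG occurred in 9 of 14 promoters of 19S subunit genes (64.3%) and in 0 of 11 promoters of 20S subunit genes, against 9.12% of 27025 gene promoters of the same length. That background includes genes below 5 CPM in these cells. Among genes with at least 5 CPM in control oocytes or control granulosa cells the share was larger, with 1821 genes holding the letters and 7737 without. The 9 genes of the 19S particle were Psmc1, Psmc2, Psmc6, Psmd2, Psmd4, Psmd6, Psmd11, Psmd12 and Psmd13. With every listed start of a gene counted, Psma6 also held the letters at a second start, giving 1 of 11. CCAAT was present in 6 of 11 promoters of 20S genes (54.5%) and 4 of 14 of 19S genes (28.6%), against 37.9% of all promoters. The ETS letters thus occurred in most 19S promoters and in none of the 20S promoters at this start, while the shares for CCAAT lay on either side of the background. A match is a description, not a bound site.

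The following 7 sequences show the ETS letters in 19S genes and, for comparison, 20S genes with other letters. They give the 150 bases before the start on the strand of the gene, 5′ to 3′, with the ETS letters, the NF-Y box and the antioxidant core, on either strand, in capitals. Psmd2, Psmd4 and Psmd11 are 19S genes, and the other 4 are 20S genes.
Psmd2, chr16:20651502-20651651, plus strand: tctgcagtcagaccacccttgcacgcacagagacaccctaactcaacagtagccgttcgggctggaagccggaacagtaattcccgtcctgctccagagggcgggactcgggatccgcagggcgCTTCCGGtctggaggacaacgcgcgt
Psmd4, chr3:95042615-95042764, minus strand: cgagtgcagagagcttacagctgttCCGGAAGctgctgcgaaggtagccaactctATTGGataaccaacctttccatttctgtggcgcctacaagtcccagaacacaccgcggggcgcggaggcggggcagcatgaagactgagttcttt
Psmd11, chr11:80428465-80428614, plus strand: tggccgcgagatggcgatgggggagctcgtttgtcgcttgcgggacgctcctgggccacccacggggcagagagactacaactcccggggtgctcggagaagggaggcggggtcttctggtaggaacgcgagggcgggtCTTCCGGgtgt
Psma1, chr7:114276117-114276266, minus strand: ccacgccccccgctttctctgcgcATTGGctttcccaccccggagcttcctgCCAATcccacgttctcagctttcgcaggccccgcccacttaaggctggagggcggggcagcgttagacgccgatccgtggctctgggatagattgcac
Psma6, chr12:55384072-55384221, plus strand: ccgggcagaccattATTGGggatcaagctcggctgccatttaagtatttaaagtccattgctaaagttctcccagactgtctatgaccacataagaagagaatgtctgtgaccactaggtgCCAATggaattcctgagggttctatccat
Psmb5, chr14:54617996-54618145, minus strand: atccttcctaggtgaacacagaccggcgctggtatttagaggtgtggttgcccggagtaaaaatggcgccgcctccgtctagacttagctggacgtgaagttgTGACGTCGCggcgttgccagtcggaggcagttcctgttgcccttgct
Psmb6, chr11:70525207-70525356, plus strand: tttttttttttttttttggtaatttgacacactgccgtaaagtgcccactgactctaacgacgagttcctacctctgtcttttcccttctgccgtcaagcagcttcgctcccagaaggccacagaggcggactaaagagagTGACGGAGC
In these windows the ETS letters lie 26 bases before the start in Psmd2, 125 in Psmd4 and 11 in Psmd11. Psma1 and Psma6 hold a pair of CCAAT boxes each, and Psmb5 and Psmb6 hold the antioxidant core. That core was found in 4 of 25 promoters of 20S and 19S genes, against 12.5% of all promoters, a share near the background. The interferon-stimulated letters were found in Psme1, Psmb3, Psmd4, Psmd9 and Psmg4, and in none of Psmb8, Psmb9 and Psmb10, with 3.49% of all promoters holding them.

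The first comparison set oocytes of the control animals against their granulosa cells. The 31 constitutive 20S and 19S subunit genes were abundant in both. Their median stood at 266 CPM in control oocytes and 298 CPM in control granulosa cells, at the 93.0th and 94.9th percentile of the genes with at least 5 CPM. Together they took 1.06% of the counts of control oocytes and 0.987% of those of control granulosa cells. The sum was thus similar in the 2 cell types, while its composition was not. Per kilobase of transcript, the highest level among the 31 genes was 14.3 times the lowest in control oocytes (Psmb2 at 755 and Psma3 at 52.8 CPM per kb). Both are genes of the 20S core, whose subunits are incorporated in equal numbers in a finished core. Psma3 was assigned a long transcript, which lowers its level per kilobase.

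A minimum of 5 CPM in 1 of the groups was met by 48 of the 49 classed genes. Psma8 passed through the oocytes alone, and Psmb8 and Psmb9 passed through the granulosa cells alone, so these genes had to differ. The median log2 ratio of oocytes over granulosa cells was -0.03, with quartiles of -0.82 and 0.49, and over all 12373 genes it was also -0.03, with quartiles of -1.44 and 1.26. A log2 ratio of at least 1 was reached by 5 of 48 members (Psma8, Psmd2, Psmd4, Psme3 and Psmf1), where 29.0% of all genes reached it. At least 1 lower stood 12 of 48 (Psma1, Psma5, Psma6, Psmb1, Psmb3, Psmb8, Psmb9, Psmb10, Psmd7, Psme1, Psme2 and Psme2b), where 31.3% of all genes did. The median lay at that of all genes. The share of members at least 1 higher was below that of all genes, and the share at least 1 lower was near it.

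**Figure D1:**
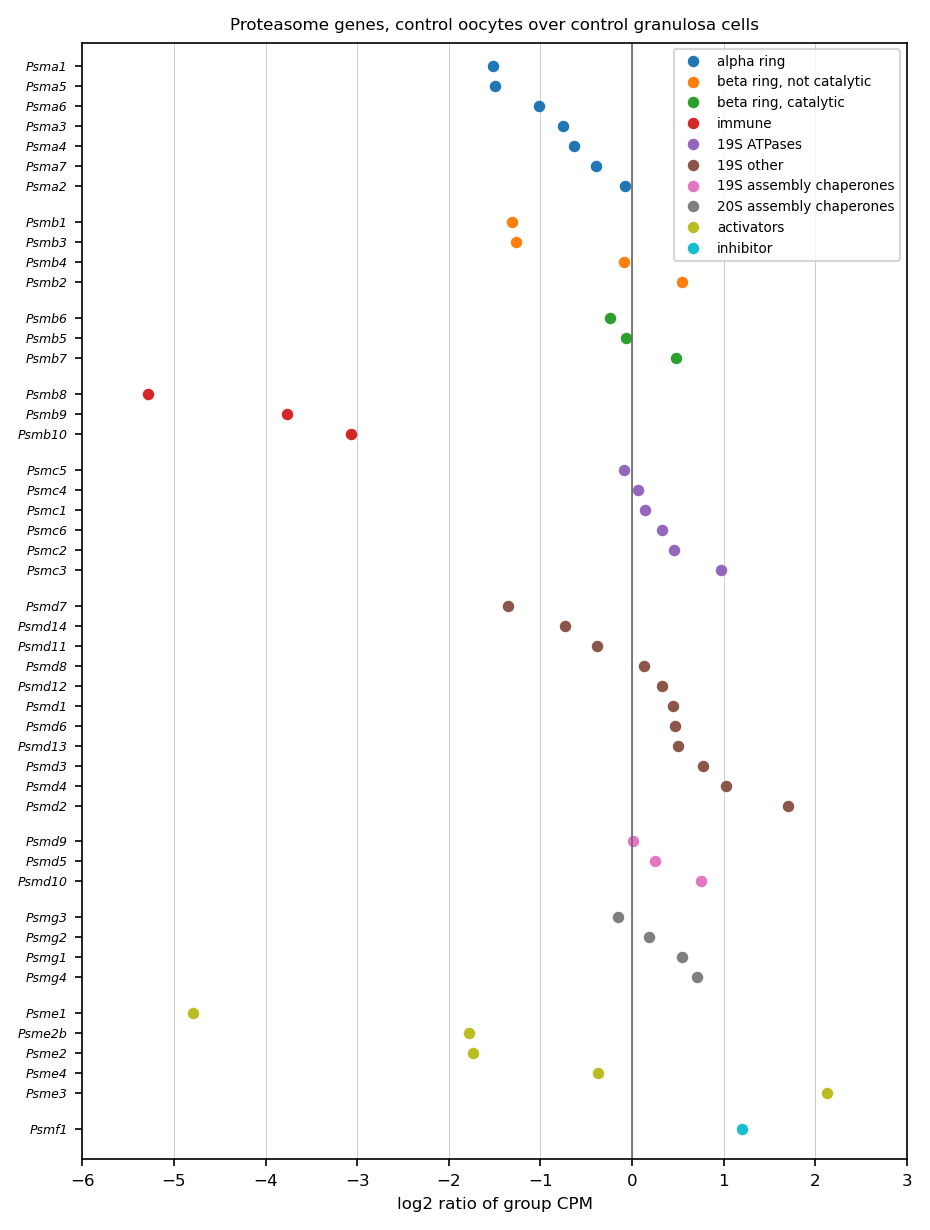
Each point is 1 proteasome gene, placed by the log2 ratio of its group CPM in control oocytes over control granulosa cells and coloured by class; Psma8 and Psmb11, which are low in 1 or both groups, and Psmc3ip are not drawn. The 7 alpha ring genes lie below 0, most 19S genes lie above it, and the immune subunits and Psme1 lie lowest.

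The alpha ring genes stood lower in oocytes, 7 of 7 of them, although Psma2 was at 0.06 without control granulosa replicate 5 and at 0.10 between the doxorubicin groups. Their sum was 1631 CPM in control oocytes and 2651 CPM in control granulosa cells, a log2 ratio of -0.70 (counting interval -0.71 to -0.69). The ratio ran from -0.07 for Psma2 to -1.51 for Psma1, with Psma7 at -0.39. Psma5 is a fixed member of the ring in every proteasome, and its CPM in control oocytes had a lowest value of 73.0, a median of 103 and a highest value of 139. In control granulosa cells the same values were 25.9, 257 and 624, so the ranges overlapped, with the oocytes in the low end. The log2 ratio was -1.50 (-1.52 to -1.47) and stayed between -1.57 and -1.35 when each cell was left out in turn.

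The beta ring was mixed. Among the genes without a proteolytic site, Psmb1 (-1.31) and Psmb3 (-1.27) stood lower in oocytes, Psmb4 was close to level (-0.09), and Psmb2 was higher (0.54). The catalytic subunit genes differed little. Psmb5, which carries the chymotrypsin-like site, had a lowest, median and highest value of 66.5, 113 and 179 CPM in control oocytes and 0.0806, 135 and 207 CPM in control granulosa cells. The group values were 122 and 128 CPM, a log2 ratio of -0.07 (-0.09 to -0.04). Psmb6, which carries the caspase-like site, stood at 557 and 658 CPM (-0.24), and Psmb7, which carries the trypsin-like site, at 248 and 177 CPM (0.49). Exons of Psmb7 overlap those of Nek6 on the opposite strand, and reads of the pair cannot be told apart without strand.

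The 19S genes leaned the other way. Of 17 genes 13 stood above 0, and their sum was 6798 CPM in control oocytes and 4755 CPM in control granulosa cells, a log2 ratio of 0.52 (0.51 to 0.52). In 12 of 16 control oocytes the sum exceeded that of every control granulosa cell. The median log2 ratio of the 17 genes was 0.33, lower than that of the sum. Over oocytes under 200 CPM and granulosa cells of at least 5000 CPM of granulosa markers, 10 of 17 stood above 0. The ATPase genes ran from -0.08 for Psmc5 to 0.97 for Psmc3. Exons of Psmc3 overlap those of Slc39a13, those of Psmd13 overlap Sirt3, and those of Psmd1 overlap Gm21972. Psmd2, which encodes the scaffold subunit that docks ubiquitin-like shuttle proteins, had the highest CPM of the proteasome genes in oocytes, where Psmb2 was highest per kilobase. Its CPM had a lowest value of 1089, a median of 1501 and a highest value of 1880 in control oocytes, against 0.564, 459 and 1181 in control granulosa cells. In 14 of 16 control oocytes it lay above every control granulosa cell, with a log2 ratio of 1.70 (1.69 to 1.71, and 1.60 to 1.83 with each cell left out). Psmd4, a receptor for ubiquitin chains, had values of 632, 852 and 1068 CPM in control oocytes and 3.91, 417 and 802 CPM in control granulosa cells, a log2 ratio of 1.03. The exceptions were Psmd14, the deubiquitinase of the lid (-0.73), its partner Psmd7 (-1.35), Psmd11 (-0.38) and Psmc5 (-0.08). The last of these was above 0 without control granulosa replicate 2 (0.15).

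The balance of the sums separated the control cells in full. The 20S sum over the 19S sum had a lowest value of 0.462, a median of 0.559 and a highest value of 0.645 in control oocytes. In control granulosa cells it was 0.764, 1.11 and 1.38. All 16 control oocytes lay below the lowest control granulosa cell. The log2 ratio of the balance was -0.95, it was -0.97 over cells whose own markers were higher, and it was -1.09 over oocytes under 200 CPM and granulosa cells of at least 5000 CPM of granulosa markers. It was -0.62 between doxorubicin oocytes and doxorubicin granulosa cells, where the ranges overlapped. One doxorubicin granulosa library, replicate 9, had a balance of 0.418, the lowest of all. Its oocyte marker sum of 8984 CPM was the median of its group. Replicates 1 and 6, with oocyte marker sums of 42459 and 30363 CPM, had balances of 0.770 and 1.18.

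**Figure D2:**
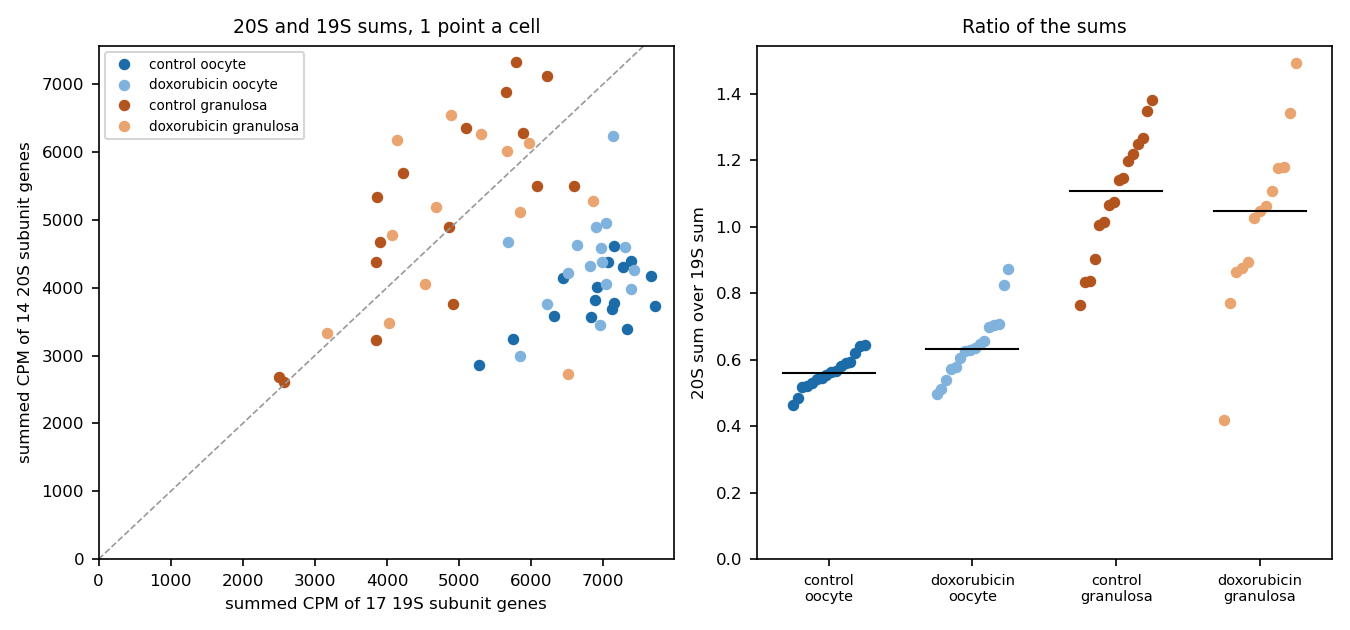
Left, the summed CPM of the 14 genes of the 20S core against that of the 17 genes of the 19S particle, 1 point a cell, with a dashed line of equality; right, the ratio of the sums by group, with the median as a bar. Control oocytes lie between 0.462 and 0.645 and control granulosa cells between 0.764 and 1.38.

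Within the 19S genes, the 9 with CCGGAAG in the promoter had a median log2 ratio of 0.46 (-0.38 for Psmd11 to 1.70 for Psmd2), and the 5 without it had a median of 0.06 (-0.73 for Psmd14 to 0.45 for Psmd1). Over all genes with a promoter entry and at least 5 CPM, the 1821 with the letters had a median of 0.36 and the 7737 without had -0.08. The 19S genes with the letters were therefore close to other genes that hold them. Between the doxorubicin groups the order was opposite, with medians of 0.24 with and 0.48 without the letters. The split was made after the motif counts were seen, and it has no test.

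The immune subunits and the PA28 activator stood far lower in oocytes. Psmb8, Psmb9 and Psmb10 encode the immune forms of the catalytic subunits. Psmb8 (chr17:34197721-34201454, plus strand) was at 0 in 12 of 16 control oocytes, with a highest value of 19.9 CPM. It was at 0 in 9 of 16 control granulosa cells, with a highest value of 275 CPM. The group values were 1.19 and 46.4 CPM, a log2 ratio of -5.29 (-5.48 to -5.10), so most of the level in granulosa cells came from a few of them.

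Psmb10 was more evenly spread, with a lowest, median and highest value of 0, 5.94 and 12.4 CPM in control oocytes and of 0, 20.95 and 228 CPM in control granulosa cells (log2 ratio -3.06). Psmb9 had group values of 1.20 and 16.3 CPM (-3.77), and its exons overlap those of Tap1. Psmb8, Psmb9 and Tap1 lie side by side in the major histocompatibility region of chromosome 17. Per kilobase of transcript, the immune subunits made up 0.582% of the immune and catalytic level in control oocytes and 6.54% in control granulosa cells. Between single cells this share ran from 0% to 2.49% in control oocytes and from 0% to 27.4% in control granulosa cells, so the ranges overlapped at the low end.

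Psme1 and Psme2 encode the alpha and beta chains of the PA28 activator. Psme1 (chr14:55578123-55581529, plus strand) had a lowest value of 0, a median of 9.46 and a highest value of 29.3 CPM in control oocytes. The control granulosa cells had values of 0, 298 and 620 CPM, and 14 of 16 of them lay above every control oocyte. The log2 ratio was -4.80 (-4.86 to -4.74). Its exons overlap those of Emc9. Psme2 stood at 61.6 and 205 CPM (-1.73). The sum of both genes was 33.5 to 107 CPM in control oocytes and 147 to 1003 CPM in control granulosa cells, so all 16 oocytes lay below the lowest granulosa cell. Psme2b is a near-identical copy of Psme2, and its ratio of -1.78 may rest on reads of the parent gene.

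The nuclear activator and the inhibitor went the opposite way. Psme3 encodes PA28 gamma, which sits in the nucleus and acts without ATP. It had a lowest, median and highest value of 73.8, 131 and 211 CPM in control oocytes and of 0, 0.222 and 103 CPM in control granulosa cells. In 12 of 16 control oocytes it lay above every control granulosa cell, a log2 ratio of 2.13 (2.09 to 2.17). Psmf1, which encodes the inhibitor PI31, stood at 195 and 85.0 CPM (1.20), with 3 control oocytes above the granulosa range. Psme4, the activator PA200, stood at 30.5 and 39.6 CPM, and its ratio of -0.37 changed to 0.22 without control granulosa replicate 2.

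The germ cell subunit Psma8 was found in every control oocyte, with a lowest value of 8.16, a median of 17.1 and a highest value of 39.3 CPM. In control granulosa cells it summed to 1 count. With that count set to the floor of 3, the log2 ratio was 10.19 (8.64 to 12.47). Psma7 encodes the alpha subunit in whose place the Psma8 product sits, and it stood at 435 CPM in control oocytes. Per kilobase, Psma8 made up 2.36% of the level of both genes in control oocytes, so Psma7 remained the main form. In the doxorubicin granulosa group Psma8 reached 39.0 CPM in replicate 7 and 15.98 CPM in replicate 6, which held 12894 and 30363 CPM of oocyte markers. Other libraries rich in oocyte markers lacked it. Psma8 and Psmb11 together summed to 0.311 CPM in replicate 1 and to 0 in replicate 4, which held 42459 and 23407 CPM. Psmb11, the thymus subunit, had a group value under 5 CPM in both cell types.

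**Figure D3:**
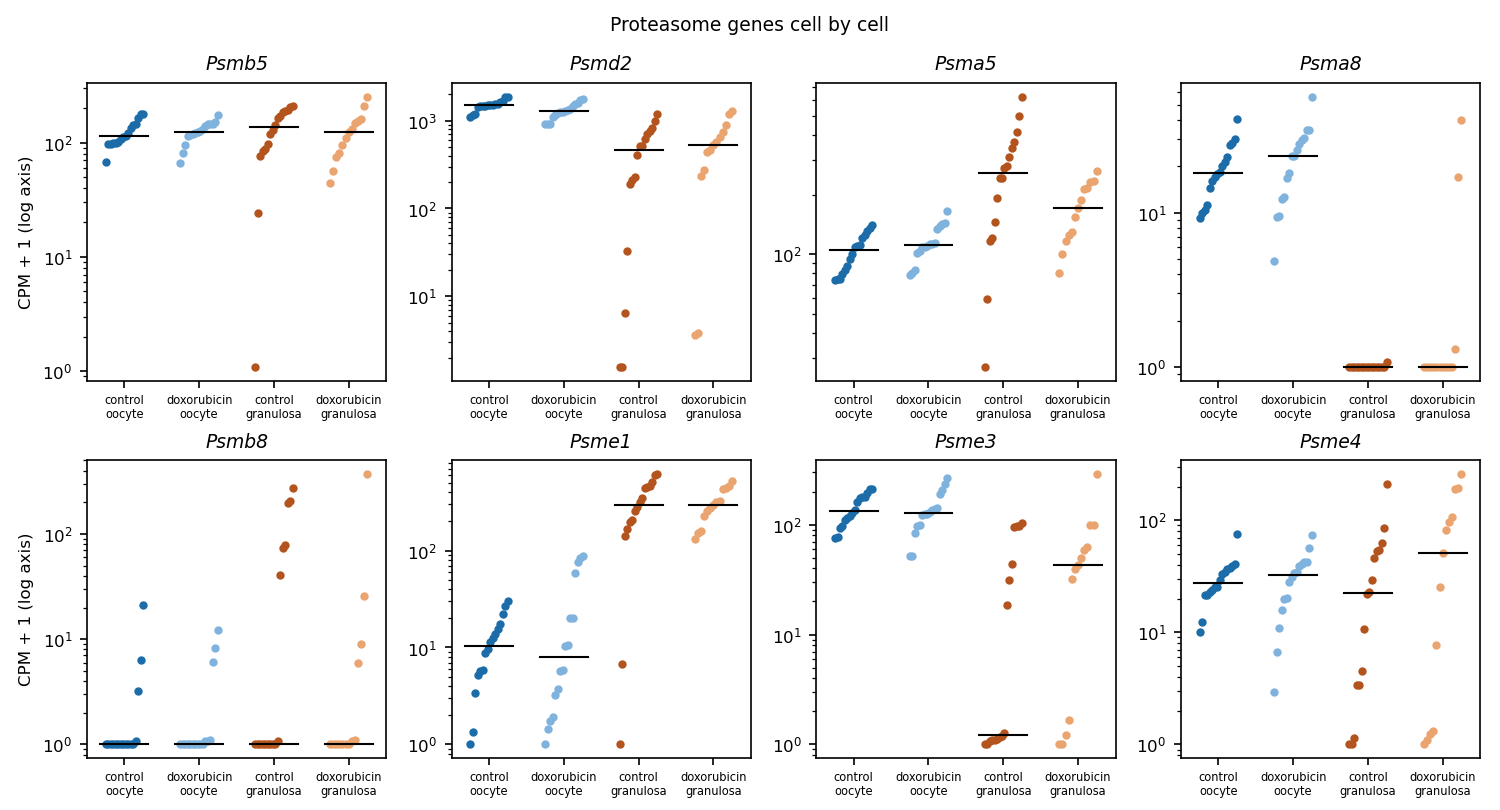
CPM + 1 on a log axis for 8 proteasome genes, 1 point a cell and a bar at the median of each of the 4 groups. Psmd2, Psma8 and Psme3 are higher in oocytes, Psme1 is higher in granulosa cells, Psmb5 has similar medians, and Psmb8 is at or near 0 in most cells of every group.

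Assembly chaperones stood slightly higher in oocytes. The 3 chaperones of the 19S base (Psmd5, Psmd9 and Psmd10) summed to 422 CPM in control oocytes and 345 CPM in control granulosa cells (0.29), and the 4 chaperones of the 20S core (Psmg1 to Psmg4) to 325 and 253 CPM (0.36). The second difference was -0.02 over oocytes low and granulosa cells rich in granulosa markers.

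Cells of a group shared part of their variation. The Spearman correlation between each of the 31 constitutive genes and the sum of the other 30 had a median of 0.50 over 16 control oocytes, 0.41 over 16 doxorubicin oocytes, 0.46 over 16 control granulosa cells and 0.25 over 13 doxorubicin granulosa cells. The medians over all genes were near 0 in the same cells, from -0.09 to 0.06. The points share library preparation and depth, and the values are descriptions. Psmd2 had the lowest correlation of the 31 genes in both oocyte groups, -0.14 in control oocytes, where Psmd13 was close to it at -0.13, and -0.56 after doxorubicin, where Psmd1 followed at -0.21.

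The second comparison was between doxorubicin and control oocytes, 6 h after injection. Differences were small and most lay in 1 direction. The minimum of 5 CPM was met by 46 members, and 38 of these stood above 0, where 51.1% of all genes did, and of every classed member 40 of 49 did. Psmb8, Psmb9 and Psmb11 did not reach 5 CPM. The median log2 ratio was 0.14, with quartiles of 0.03 and 0.22, against 0.01 over all 11119 genes, with quartiles of -0.24 and 0.25. A log2 ratio of at least 0.5 was reached by 2 of 46 members, Psmb10 and Psme1, against 13.8% of all genes, and 0 of 46 stood at least 0.5 lower, against 10.3%. The median was 0.08 over the 10 control and 11 doxorubicin oocytes with less than 200 CPM of granulosa markers. Markers of other cell types also stood higher by group value in the treated oocytes. Above 0 were 16 of 19 granulosa markers (median log2 ratio 1.09). Their sum had a median of 87.5 CPM in control and 89.8 CPM in treated oocytes, close to level. Also above 0 were 6 of 7 endothelium markers (2.87, median sums of 4.56 and 27.9 CPM) and 4 of 4 red blood cell genes (2.29, 1.497 and 6.767 CPM). Of 8 stroma markers 5 stood above 0 (0.15, median sums of 29.8 and 39.6 CPM). The part of these cell types in the result was not tested.

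Of the 20S and 19S sums, only that of the 20S core stood higher. All 14 of its genes stood above 0, and their sum was 3797 CPM in control oocytes and 4366 CPM in treated ones (log2 ratio 0.20, counting interval 0.20 to 0.21). With the scaling factors of edgeR 13 of 14 stood above 0, and over the oocytes with few granulosa markers all 14 did. Without control oocyte replicate 16, the library with the most counts, 12 of 14 did. The log2 ratio of the sum was then 0.16, its lowest with any cell left out. The sum had a lowest, median and highest value of 2855, 3802 and 4609 CPM in control oocytes and of 2990, 4352 and 6232 CPM in doxorubicin oocytes. In 13 of 16 doxorubicin oocytes it exceeded the control median, in 5 it exceeded the highest control oocyte, and the ranges otherwise overlapped. Of 17 genes of the 19S particle 12 stood above 0, and their sum was 6798 and 6782 CPM (-0.00). The 3 chaperones of the 19S base (Psmd5, Psmd9 and Psmd10) had a ratio like that of the core. All 3 stood above 0, and their sum was 422 and 481 CPM (0.19). The highest value of the 20S sum was in doxorubicin oocyte replicate 9, which also held the most granulosa markers, and without it the ratio of the balance was 0.18 in place of 0.20.

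By class, the alpha ring genes ran from 0.13 for Psma2 to 0.31 for Psma4, the beta ring genes without a proteolytic site from 0.08 for Psmb4 to 0.34 for Psmb3, and the catalytic genes from 0.00 for Psmb5 to 0.16 for Psmb6. Psmb3 had values of 86.9, 144 and 205 CPM in control oocytes and 104, 169 and 309 CPM in treated oocytes, with 4 cells above the control range. Psmb5 was level at 122 and 123 CPM (counting interval -0.02 to 0.03), as was Psmb7 (0.02). Psma7 stood at 435 and 523 CPM (0.27) and Psma8 at 19.5 and 22.3 CPM (0.19, and -0.00 without doxorubicin oocyte replicate 2). The largest ratio among genes needed by every proteasome was that of the assembly chaperone Psmg3, at 41.6 and 58.2 CPM (0.49, and 0.39 to 0.58 with each cell left out).

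The 20S over 19S balance stood higher after doxorubicin. It had values of 0.496, 0.633 and 0.873 in doxorubicin oocytes, with 7 of 16 above the highest control oocyte and 13 of 16 above the control median, a log2 ratio of 0.20. Over the oocytes with few granulosa markers the ratio was 0.19. The 2 highest values were in replicates 9 and 4, which held 3190 and 72.6 CPM of granulosa markers. A part of RNA from granulosa cells in this shift was not tested.

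The lowest ratios were those of 19S genes that oocytes hold at high levels. Psmd3 stood at 373 and 317 CPM (-0.23), Psmd2 at 1451 and 1291 CPM (-0.17) and Psmd1 at 402 and 359 CPM (-0.16), and each stayed below 0 with any cell left out. Psmd2 had values of 913, 1270 and 1774 CPM in doxorubicin oocytes, within the control range or below it in every cell. Psmg1 was at -0.14, Psmc3ip, which is no subunit, was at 0.30, and Psme3 at -0.09 changed to 0.03 without control oocyte replicate 16. The differences of Psme4 (-0.02) and Psmf1 (0.13) were small.

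The highest ratios of this comparison were those of Psmb9, Psme1 and Psmb10, and each was smaller with 1 cell left out. Psme1 had values of 0, 9.46 and 29.3 CPM in control oocytes and 0, 7.04 and 86.1 CPM in doxorubicin oocytes. Its group values were 11.3 and 21.6 CPM (0.94), while the median cell was lower after doxorubicin. The 4 doxorubicin oocytes above the control range were replicates 9, 10, 11 and 12, with 82.9, 57.3, 86.1 and 74.9 CPM, and their granulosa markers summed to 3190, 444, 2689 and 2056 CPM. Over the oocytes with few granulosa markers the log2 ratio was -0.32.

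The immune sum behaved in the same way. It went from 8.31 to 12.9 CPM (0.63), and it was -0.04 over the oocytes with few granulosa markers. Psmb10 went from 5.92 to 8.97 CPM (0.60, and 0.45 without doxorubicin oocyte replicate 9). Psmb9 went from 1.20 to 2.51 CPM, and its ratio of 1.07 was -0.15 without that same library. Psmb8 stood at 1.19 and 1.39 CPM, with a ratio between -0.63 and 1.78 as single cells were left out, and Psme2 stood at 0.15. The Spearman correlation of the immune sum with the granulosa marker sum was 0.84 over 16 doxorubicin oocytes and 0.58 over 16 control oocytes, as a description.

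**Figure D4:**
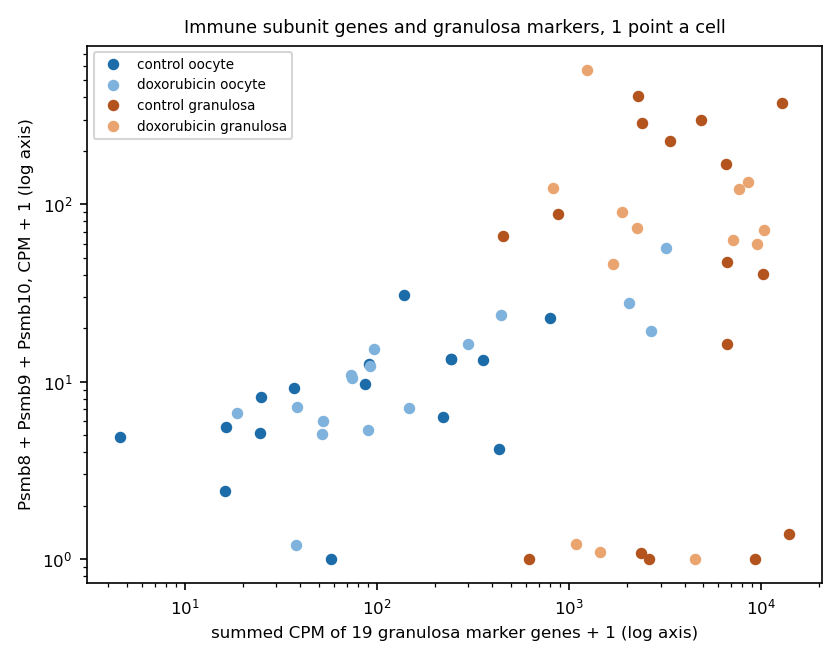
The summed CPM of Psmb8, Psmb9 and Psmb10 against the summed CPM of 19 granulosa marker genes, both plus 1 on log axes, 1 point a cell. Among oocytes the cells with more granulosa markers tend to hold more immune subunit RNA, with a Spearman correlation of 0.58 in control and 0.84 in doxorubicin oocytes. Among granulosa cells the immune sum runs from 0 to 571 CPM with no such order.

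The third comparison was between doxorubicin and control granulosa cells. Single cells differed widely, and 26 of 47 members kept their sign with each cell left out in turn. The minimum was met by 47 members, and 25 of these stood above 0, near the 48.9% of all genes, and the median log2 ratio was 0.04 against -0.03 over all 12194 genes. At least 0.5 higher stood 6 of 47 (Psmb2, Psmd3, Psme3, Psme4, Psmg1 and Psmg3), against 31.4% of all genes, and at least 0.5 lower 2 of 47 (Psma5 and Psmc5), against 32.3%. With Psmc3ip, 9 genes passed 0.5 in size. Of these 9, only 2 did so over cells whose own markers were higher, and 4 over cells rich in granulosa markers. Oocyte marker sums had medians of 1433 CPM in control and 8984 CPM in doxorubicin granulosa libraries, and their part in these ratios was not tested. Psma8 and Psmb11 did not reach 5 CPM, and Psmb11 had 1 count in the treated cells. The 20S sum was 5115 and 4987 CPM (-0.04) and the 19S sum 4755 and 5033 CPM (0.08), with 5 of 14 and 11 of 17 genes above 0.

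Psme4 had the largest ratio. Its values were 0, 21.4 and 209 CPM in control granulosa cells and 0, 50.2 and 259 CPM in doxorubicin granulosa cells. The group values were 39.6 and 80.4 CPM, a log2 ratio of 1.02 (0.98 to 1.06), which ran from 0.69 without doxorubicin replicate 4 to 1.61 without control replicate 2. The ranges covered each other almost in full. Psme3 went from 33.5 to 56.2 CPM (0.75), and it was -0.06 over the 7 control and 5 doxorubicin libraries whose granulosa markers summed to 5000 CPM or more.

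Psmb2 went from 445 to 699 CPM (0.65), with values of 133, 406 and 1147 CPM in control and 196, 690 and 1708 CPM in treated granulosa cells. The chaperones of the 20S core summed to 253 and 345 CPM (0.45). Of them Psmg3 stood at 0.85, Psmg1 at 0.64, Psmg4 at 0.47 and Psmg2 at -0.18, and the median cell of Psmg1 was lower after doxorubicin (110 and 100.3 CPM). The sum was 0.50 over cells rich in granulosa markers and 0.53 over cells whose own markers were higher. Without doxorubicin replicate 14 it was 0.28.

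Psma5 went from 278 to 170 CPM (-0.71), from values of 25.9, 257 and 624 CPM to 79.0, 170 and 263 CPM. Psmc5, an ATPase, went from 436 to 230 CPM (-0.92, and -0.69 without control granulosa replicate 2). The members that kept their sign included Psma6 (-0.46), Psmd8 (-0.35), Psmd7 (-0.34), Psma1 (-0.22) and Psmb6 (-0.21) below 0, and Psmd3 (0.53), Psmd13 (0.46), Psmd2 (0.37), Psmd4 (0.36) and Psmc2 (0.32) above it. Psmb5 (-0.01) and Psmb7 (0.09) were near level, as were Psma7 (0.04), Psme1 (-0.05), Psme2 (-0.13) and Psmf1 (0.19). The immune sum was 112 and 108 CPM (-0.06), and it was -0.79 without doxorubicin granulosa replicate 4, which held 373 CPM of Psmb8. Without that library the ratio of Psmb8 was -3.94 in place of -0.43. Psmb10 was at 0.11 and Psmb9 at 0.31, and both crossed 0 with 1 cell left out. Psmc3ip, which is no subunit, went from 23.6 to 50.7 CPM, and its ratio of 1.10 was -0.03 without doxorubicin replicate 1, the library with 42459 CPM of oocyte markers.

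Among the 19S genes the 9 with CCGGAAG ranged from 0.03 to 0.46 in this comparison, and the 5 without it from -0.92 to -0.10. The sets overlapped with 1 library left out: without doxorubicin replicate 1 Psmc1, which holds the letters, was at -0.23 and Psmd6 at -0.12, and Psmc6 and Psmd11 also fell below 0 without another library. Over cells whose own markers were higher 7 of 17 genes of the 19S particle stood above 0. Over all genes the medians were 0.01 with the letters and -0.03 without. Oocyte marker RNA was also higher in the doxorubicin granulosa libraries, with a median of 8984 CPM against 1433 CPM, and its part in the split was not tested.

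**Figure D5:**
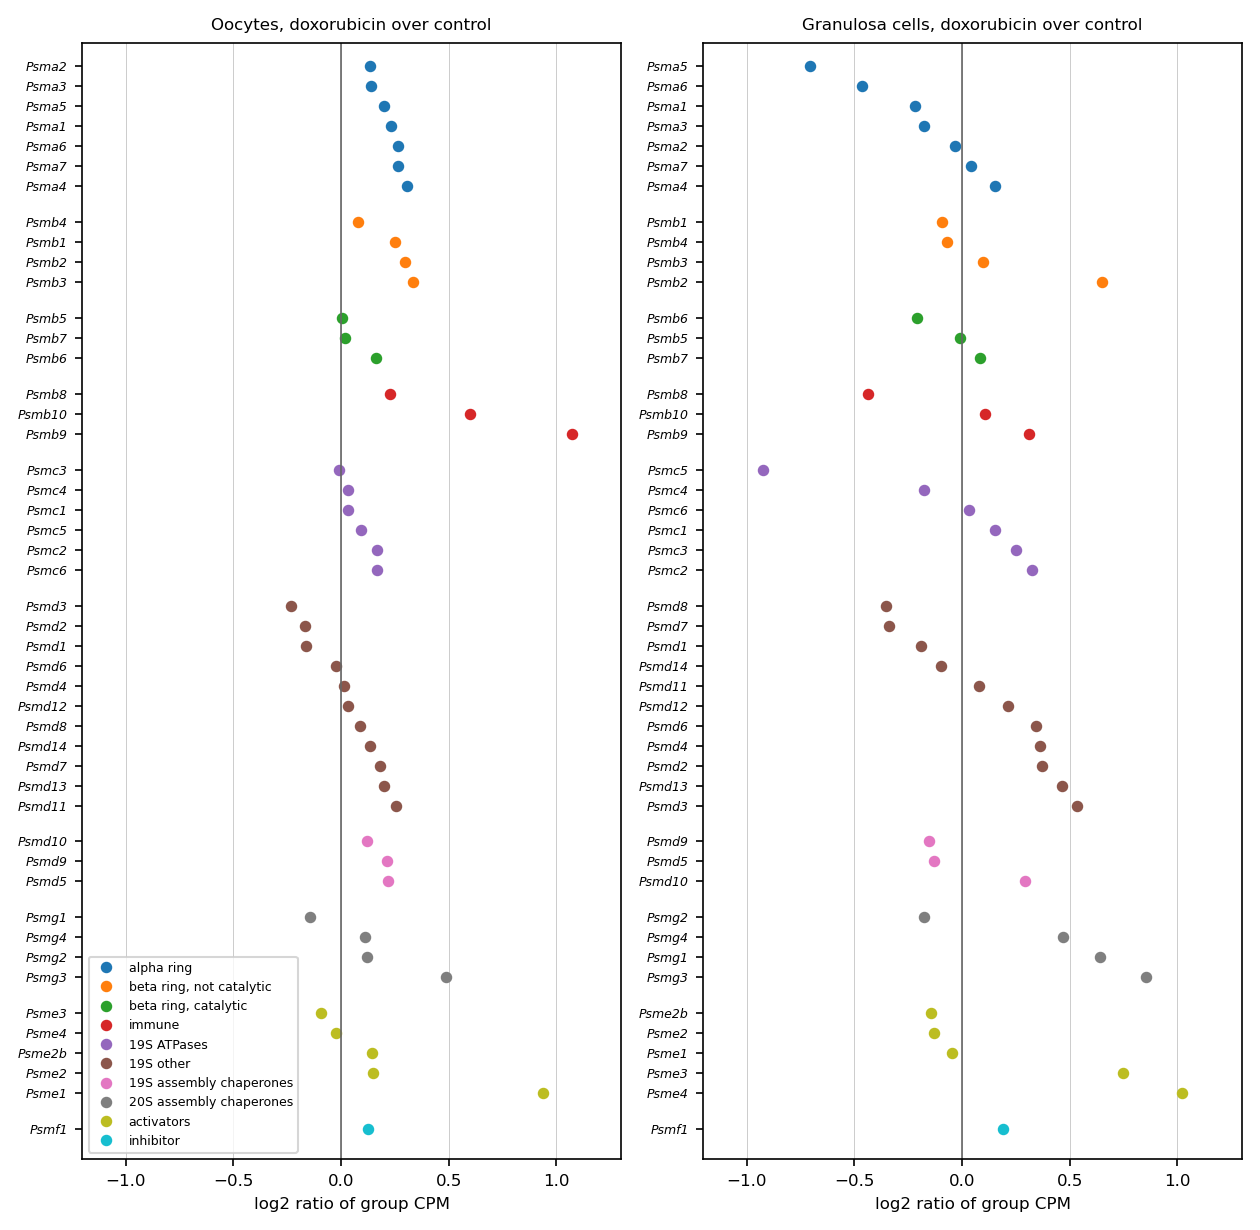
Each point is 1 proteasome gene, placed by the log2 ratio of group CPM of doxorubicin over control, in oocytes on the left and in granulosa cells on the right, by class; Psma8, Psmb11 and Psmc3ip are not drawn. In oocytes the genes of the alpha and beta rings lie at or just above 0, and in granulosa cells genes of every large class lie on both sides.

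Genes that act with the proteasome were followed in 4 lists. Of 11 measured genes of interferon signalling and antigen presentation, 11 stood at least 1 lower in control oocytes, against 31.3% of all genes, with a median of -3.22. Tap1, Erap1, H2-D1 and Irf9 met the minimum of 5 CPM through the granulosa cells alone, so these had to differ. Tap1, a peptide transporter encoded beside Psmb9, stood at 0.710 and 70.7 CPM (-6.64), and Tapbp, which loads peptides, at 7.15 and 129 CPM (-4.18). Erap1, a trimming peptidase, was at -4.49 and H2-K1, a class I heavy chain, at -3.79. These genes and the immune subunits were all lower in oocytes than in granulosa cells. For Tap1, Erap1, H2-D1, Irf9, Psmb8 and Psmb9 the minimum fixed that direction in advance. After doxorubicin Tap1 went from 0.710 to 9.06 CPM in oocytes, and its highest cell was replicate 12 at 63.5 CPM. Tap1 met the minimum through the doxorubicin oocytes alone, so here too the direction was fixed in advance. Its ratio of 3.67 was 0.63 over oocytes with few granulosa markers.

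Of 15 genes for the transcription of proteasome genes and its control, 3 stood at least 1 higher and 4 at least 1 lower in control oocytes, below the 29.0% and near the 31.3% of all genes. Nfe2l2, the antioxidant factor, stood at 19.7 and 353 CPM (-4.16), and its partners Mafk and Maff at -2.87 and -3.22, with Maff meeting the minimum through the granulosa cells alone. Nploc4, a cofactor of the segregase Vcp, stood at 258 and 47.5 CPM (2.44). After doxorubicin 4 of 14 measured genes stood at least 0.5 higher in oocytes, against 13.8% of all genes: Nfya (0.83), Nfe2l2 (0.76), Mafk (0.69) and Nfyb (0.51). Over oocytes with few granulosa markers these were 0.56, 0.45, 0.52 and 0.24. Nfya and Nfyb encode subunits of NF-Y. In granulosa cells Nfyb stood at 1.45 (0.67 over cells rich in granulosa markers) and Ddi2, the protease that activates Nfe2l1, at -1.42 (-3.82 over those cells, and -3.24 without doxorubicin replicate 13 to -0.69 without control replicate 7). Keap1 stood at -2.35 (-4.46 without doxorubicin replicate 15), and Bach1 at -2.96, which was 1.97 over cells rich in granulosa markers.

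Of 15 proteasome-associated genes, 3 stood at least 1 higher and 3 at least 1 lower in control oocytes, smaller shares than the 29.0% and 31.3% of all genes. Ecpas, a scaffold bound to the particle, was at 269 and 51.9 CPM (2.37), and Akirin2, which carries proteasomes into the nucleus, at 162 and 59.7 CPM (1.44). Zfand5 was at -1.55 and the shuttle factor Ubqln2, which met the minimum through the granulosa cells alone, at -2.48. After doxorubicin 0 of 14 passed 0.5 in either direction in oocytes, against 13.8% and 10.3% of all genes. Ecpas (-0.37), Akirin2 (-0.29) and Rad23b (-0.28) stood below 0, the last at 0.02 over oocytes with few granulosa markers. In granulosa cells 5 of 15 stood at least 0.5 lower, a share near the 32.3% of all genes. Ube3c was at -2.16. Ubqln2 (-1.59) was at -0.94 without control replicate 5, and Uchl5 (-1.05) at -0.33 without that library. Ubqln1 (-1.56) was at -0.42 over cells rich in granulosa markers.

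Of the genes that supply ubiquitin, the polyubiquitin gene Ubb stood at 3762 CPM in oocytes of control animals, against 2689 CPM after doxorubicin (-0.48), and Rps27a, which encodes ubiquitin fused to a ribosomal protein, stood at 0.24. Over oocytes with few granulosa markers these ratios were -0.52 and 0.25. In granulosa cells Ubb was at -0.08 and Rps27a at -0.18.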

How the data were processed

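Single cells were sequenced as paired-end SMART-seq libraries, 1 library a cell. The values are the authors' estimated counts for each gene, deposited as 1 table without normalization, and 34.0% of those above 0 are not whole. The submitters' processing notes name Partek, Bowtie2, HISAT2, DESeq2 and the build mm10. Annotation, counting method and use of strand are not given in the sources used here. All 61 libraries carry the same batch label, and groups come from the titles.

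Counts were rounded and summed by group over all gene rows (CPM). A group under 3 counts was set to 3. Intervals are 95% Clopper-Pearson intervals of the ratio of counts, with no test, since each group is 1 sample. No pair of cells within a group agreed within sampling noise (lowest chi-square per degree of freedom 60.1). Lists are described over genes that reached 5 CPM in 1 of the groups compared. Members and lists were chosen with earlier results of these data known. Named in each comparison were the catalytic, immune and tissue subunits, Psma7, the activators and the inhibitor, up to 6 members at either end whose sign held with each cell left out, and up to 4 genes per other list. Other members were named after their values were seen, for class ranges and exceptions. Lengths, positions and exon overlaps come from GENCODE M21 (GRCm38). Alternatives were cell weighting, cell medians with a pseudocount of 1, edgeR 4.0.16 and DESeq2 1.42.0 scaling, other minimum levels (none, 20 CPM), cells chosen by markers, and each cell left out. The ratio was tested on simulated counts that carry counting error alone, so that test does not cover the spread between cells. Python 3.11.15, numpy 2.4.6, pandas 2.3.3, scipy 1.17.1, matplotlib 3.10.9 and R 4.3.3 were used. Some genes of the other lists are not reported here.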

Additional observations from a re-analysis of the deposited data

How the results depend on the processing

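No paired analysis was possible because the results come from no test and cells that share a number share only the number. The cell type median of -0.03 lay at that of all genes and had no stable sign. It was 0.015 with equal weight of cells, 0.21 from cell medians, -0.00074 with TMM factors, 0.029 with DESeq2 size factors, 0.015 with no minimum, 0.015 over cells whose own markers were higher, -0.22 over oocytes low and granulosa cells rich in granulosa markers, -0.068 over the 31 constitutive genes and 0.075 in doxorubicin cells. With each cell left out it ran from -0.074 (without control granulosa replicate 3) to 0.079 (without control granulosa replicate 2). Over the 31 constitutive genes alone, 2 stood at least 1 higher and 6 at least 1 lower. Of the 17 members called, all kept their direction under the alternatives run other than cell medians, where 15 did.

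The doxorubicin median in oocytes (0.14) was 0.088 from cell medians and 0.084 over oocytes with few granulosa markers, and ran from 0.098 (without doxorubicin replicate 9) to 0.17 (without control replicate 11). Over oocytes with few granulosa markers the direction changed for the immune sum (-0.045) and Psme1 (-0.32), and among the genes of the other lists for Rad23b (0.02), B2m (-0.43), H2-K1 (-0.30) and Ifngr2 (-0.01), and from cell medians for Psme1 (-0.43).

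The doxorubicin median in granulosa cells (0.040) was -0.0017 with equal weight, -0.027 over cells whose own markers were higher and -0.063 over cells rich in granulosa markers. With each cell left out it ran from -0.030 to 0.099. Of the 31 constitutive genes 16 stood above 0. The direction changed for Psmc3ip over cells whose own markers were higher (-0.060) and rich cells (-0.32), with a range from -0.027 to 1.51 when each cell was left out, for Psme3 (-0.058), Irf9 (-0.042) and Bach1 (1.97) over rich cells, and for Psmg1 from cell medians (-0.13). The values for genes outside the proteasome in cells chosen by markers were computed by a choice made after seeing the data. The causes were not tested. Counting intervals cover only reads, and with 1 sample a group the spread between animals is unknown.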
